A study of Mus musculus with 39 samples.

Results

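The cytosolic ribosomal protein genes encode the protein part of the ribosomes that translate nuclear transcripts. They were taken as the protein-coding genes whose GENCODE mouse symbol is Rpl or Rps with a number and at most 1 of the letters a, x or l, or Rplp0, Rplp1, Rplp2 or Rpsa. This rule found 80 of the 55573 genes in the files, 49 of the large (60S) and 31 of the small (40S) subunit, and 78 passed the filter on low counts. The 2 that did not were Rpl10l and Rpl3l, copies known mainly from testis and striated muscle. The rule uses symbols alone and no measured value.

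The data are bulk RNA-seq read counts of the endoneurium, the tissue inside the perineurium, of the distal sciatic nerve. The mice were adults of 2 to 4 months on a C57BL/6 background, and all carried Lepr fl/fl, a floxed leptin receptor gene. *Lepr*-ctrl mice had no Cre. *Lepr*-cKO mice had *Dhh*-Cre in addition, a Cre recombinase driven by *Dhh* regulatory sequences in the Schwann cell lineage, so other endoneurial cells keep the gene. The nerve of one side was crushed (injured) and the nerve of the other side, left uncrushed, served as the healthy one, and nerves were taken 2 or 4 weeks post-crush (wpc) from different mice. There were 39 libraries from 22 mice, which are named here by m and the number in their label. *Lepr*-ctrl gave 5 healthy and 5 injured nerves at 2 wpc and 5 healthy and 4 injured nerves at 4 wpc, and *Lepr*-cKO gave 6 and 5 at 2 wpc and 5 and 4 at 4 wpc. The libraries held 10905806 to 45016322 counts (median 27752451), and totals were lowest in the injured *Lepr*-ctrl nerves at 4 wpc (10905806 to 17640587). Lepr itself was at 9.37 ± 1.68 CPM (counts scaled to the library total, mean ± SD) in healthy *Lepr*-ctrl and 10.2 ± 4.13 CPM in healthy *Lepr*-cKO nerves at 2 wpc, and at 6.63 ± 0.63 and 8.30 ± 2.12 CPM at 4 wpc. In injured nerves it was at 53.2 ± 17.7 and 69.7 ± 33.0 CPM at 2 wpc, and at 44.5 ± 21.1 and 30.5 ± 5.23 CPM at 4 wpc. The *Lepr*-cKO allele loses exon 1 and still gives a truncated receptor, and the levels of the genotypes overlapped at each time in healthy and in injured nerves. Gene-level Lepr counts therefore did not separate the genotypes, which rest on the labels.

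A ribosome holds 1 copy of most of its proteins, so their genes are usually expressed together and at high levels, and their transcripts take a sizeable share of the mRNA of a growing cell. Their transcripts are known for the 5′ terminal oligopyrimidine (TOP) sequence, a C at the start followed by a run of pyrimidines, through which mTORC1 and the RNA-binding protein LARP1 set how well they are translated. After crush, Schwann cells shed their myelin programme and divide, macrophages enter the nerve, and the regrowing axons are later remyelinated, all of which need protein synthesis.

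RefSeq start sites (GRCm38.p6) were at hand for 60 of the 80 genes, in 72 windows of 300 bases from 250 before to 50 after a start. A C at the start followed without a break by pyrimidines, for a run of at least 5, opened 18.1% of these windows and 2.51% of all 32851 windows. An annotated start can lie some bases from the start a cell uses, so these shares describe annotated starts alone. The first 25 transcribed bases of 6 genes show what is meant, with the pyrimidine run in capitals. They were chosen as long runs and as genes whose values are described further on, and the start is the first base of each, on the strand given.

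Rpl15 (14:18270986, minus strand): CTTCCTTTCCTCTggcggcagccat

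Rps10 (17:27635244, minus strand): CTTCCTTTCCagcctccgcctcgga

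Rps18 (17:33955665, minus strand): CTCTCTTCCacaggaggcctacacg

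Rps6 (4:86857367, minus strand): CTCTTTTTCgtgacgcctcccaggc

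Rpl35a (16:33056482, plus strand): CTCTTTCCgccatcttggcgcctgt

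Rpl38 (11:114668580, plus strand): CTTTCCCCgttctcttcggttctca

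A set of 4 motifs known from promoters of housekeeping genes was searched on both strands of the same windows. CCGGAAG, the core bound by ETS factors such as GABPA, was in 36.1% of the windows of these genes and in 8.86% of all windows. AAGATGGC, a YY1 motif, was in 9.72% and 2.75%, GGGCGG, the GC box bound by SP1, in 58.3% and 35.7%, and TATAAA, the TATA box, in 8.33% and 13.6%. A match describes the letters of the window and says nothing of a factor being bound. In the stretches below, from 60 bases before the start to 20 bases from it, the ETS core is in capitals and lies 20 to 29 bases before the start.

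Rpl38 (chr11:114668520-114668599, plus strand): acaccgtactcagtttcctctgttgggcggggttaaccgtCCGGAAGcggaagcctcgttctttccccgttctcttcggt

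Rps10 (chr17:27635225-27635304, minus strand): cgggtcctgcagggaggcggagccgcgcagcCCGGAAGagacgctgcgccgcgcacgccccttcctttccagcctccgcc

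Rps21 (chr2:180257319-180257398, plus strand): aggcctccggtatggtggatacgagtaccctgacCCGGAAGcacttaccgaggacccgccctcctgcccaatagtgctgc

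These genes have left many processed pseudogenes, near-identical copies without introns, and the reads were single and 50 bases long. A 50-base window of the transcript was counted as shared where an annotated transcript of another gene holds the same letters. Only exact matches were counted, whereas the paper's alignment allowed mismatches. Copies that differ by few bases can therefore take reads without being counted, also for windows found in no other gene. Over the 78 tested genes the median share of such windows was 58.7%, and 77 of the 80 genes shared windows with at least 1 annotated pseudogene. In Rpl7a, bases 429 to 478 of the coding sequence stand in 45 other genes. Rps3 shared 2.96% of its windows. The windows below show both cases, and the counts of genes like Rpl7a are uncertain, since the sources used here do not say how reads that fit several places were counted.

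Rpl7a coding bases 429 to 478, in 45 other genes: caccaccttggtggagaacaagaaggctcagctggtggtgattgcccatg

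Rps3 coding bases 342 to 391, in 0 other genes: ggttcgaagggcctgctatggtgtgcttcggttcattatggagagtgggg

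Levels per length were lower, in the median, where more windows were shared. Taken as CPM per kilobase of merged exon over all libraries, the median level of the 78 tested genes was 16.6. Their range was from 797 for Rplp1, an acidic protein of the stalk that recruits elongation factors, to 0.320 for Rpl39l, a testis-enriched copy of Rpl39. The 90th percentile of the level was 76.8 times the 10th percentile. The 8 tested genes with under 20% of their windows shared (among them Rpl39, Rpl39l, Rpl4, Rpl8, Rps20, Rps24 and Rps3) had a median of 73.9 CPM per kilobase, and the 50 with over 50% shared had a median of 9.61. The share depends on the transcript picked. Rps20 and Rps24 were measured on transcripts of 3706 and 1613 bases, of whose windows 277 and 298 were shared. On shorter transcripts of these genes the share could be above 20%, so they may not be little shared. Across the 78 tested genes the share of windows and the level had a Spearman's rho of -0.57, a description across genes that all come from the same libraries. Rps6, Rpl19, Rpl24 and Rpl23a, whose proteins are as abundant in a ribosome as the rest, stood at 1.05, 1.14, 0.843 and 0.567 CPM per kilobase. A level of such a gene is therefore the level of the reads assigned to it. For 37 of the genes an exon also overlaps another annotated gene, and for 11 (among them Rpl13a, Rpl23a, Rpl24, Rpl30, Rpl31, Rpl32, Rpl35, Rpl5, Rps10 and Rps25) the overlap covers over 20% of the exon length. The use of strand in counting is not given in the sources used here, so these counts carry a further uncertainty.

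**Figure D1:**
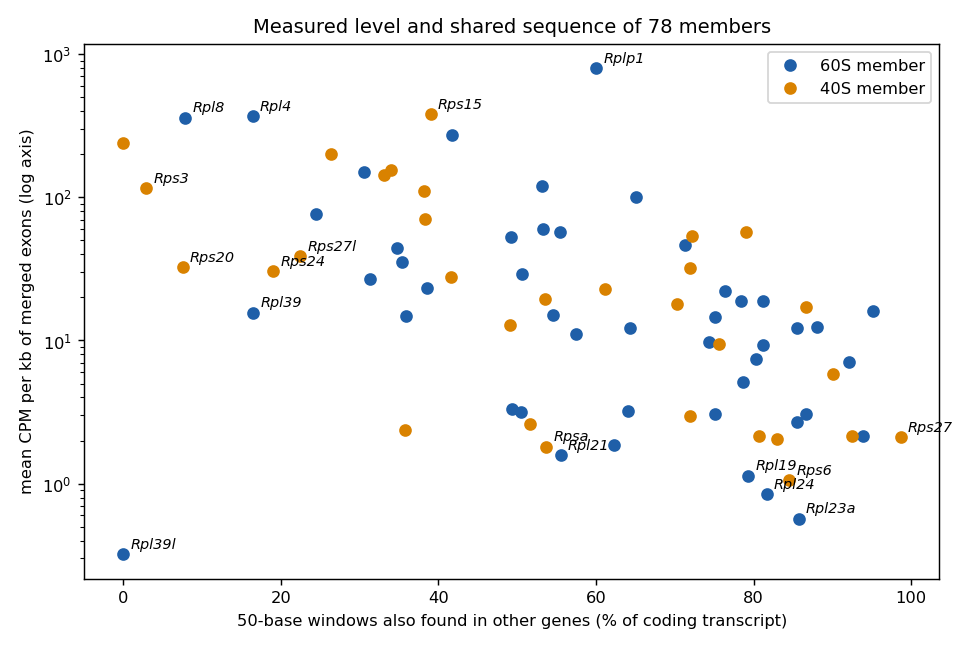
Mean level of the 78 tested ribosomal protein genes over all 39 libraries (CPM per kilobase of merged exon, logarithmic axis) against the percent of their 50-base transcript windows found in another annotated gene, by subunit. The median is 73.9 under 20% shared and 9.61 over 50% shared, with Rpl39l (0.320) and Rpl39 (15.6) low among the genes under 20%.

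Some libraries stood apart from their group before any comparison was made. The injured *Lepr*-cKO library of mouse m126 at 2 wpc held 44698 CPM of 14 skeletal muscle markers, most of it Acta1, where the means of the other 7 groups were 10.8 to 26.4 CPM, and 4663 CPM of 10 adipocyte markers, most abundant Pnpla2, where the other injured libraries held 83.5 to 792 CPM. Injured *Lepr*-cKO mice m169 and m177 at 4 wpc lay at opposite ends of their group. Summed myelin markers (11 genes, none at 0) were at 80296 CPM in mouse m169 and 32158 CPM in mouse m177, with 55080 and 68676 CPM in mice m175 and m176. The share of counts on mitochondrially encoded genes was 2.95% in mouse m169, 12.6% in m175, 9.84% in m176 and 20.2% in m177. Injured *Lepr*-ctrl mouse m144 at 2 wpc had the highest such share, 33.0%.

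Ribosomal protein genes took a larger share of the library in every group of injured nerves than in any group of healthy nerves. Summed over the genes, the share was 0.451% of counts in healthy *Lepr*-ctrl and 0.461% in healthy *Lepr*-cKO nerves at 2 wpc, and 0.414% and 0.424% at 4 wpc. In injured nerves it was 1.03% ± 0.104 (SD, n = 5) in *Lepr*-ctrl and 0.974% ± 0.0896 (n = 5) in *Lepr*-cKO at 2 wpc. At 4 wpc it was 1.31% ± 0.0815 (n = 4) in *Lepr*-ctrl and 1.02% ± 0.291 (n = 4) in *Lepr*-cKO. The 4 injured *Lepr*-ctrl libraries at 4 wpc lay at 1.38%, 1.38%, 1.22% and 1.26%, and the 4 *Lepr*-cKO libraries at 0.672% (mouse m169), 1.17% (m175), 0.903% (m176) and 1.33% (m177), so 1 *Lepr*-cKO library lay among the controls and 3 below them. The mean log2 CPM over the genes gave the same order of groups at 4 wpc, with 5.497 ± 0.10 in injured *Lepr*-ctrl, 5.14 ± 0.37 in injured *Lepr*-cKO, and 4.14 ± 0.11 and 4.16 ± 0.13 in the healthy nerves.

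**Figure D2:**
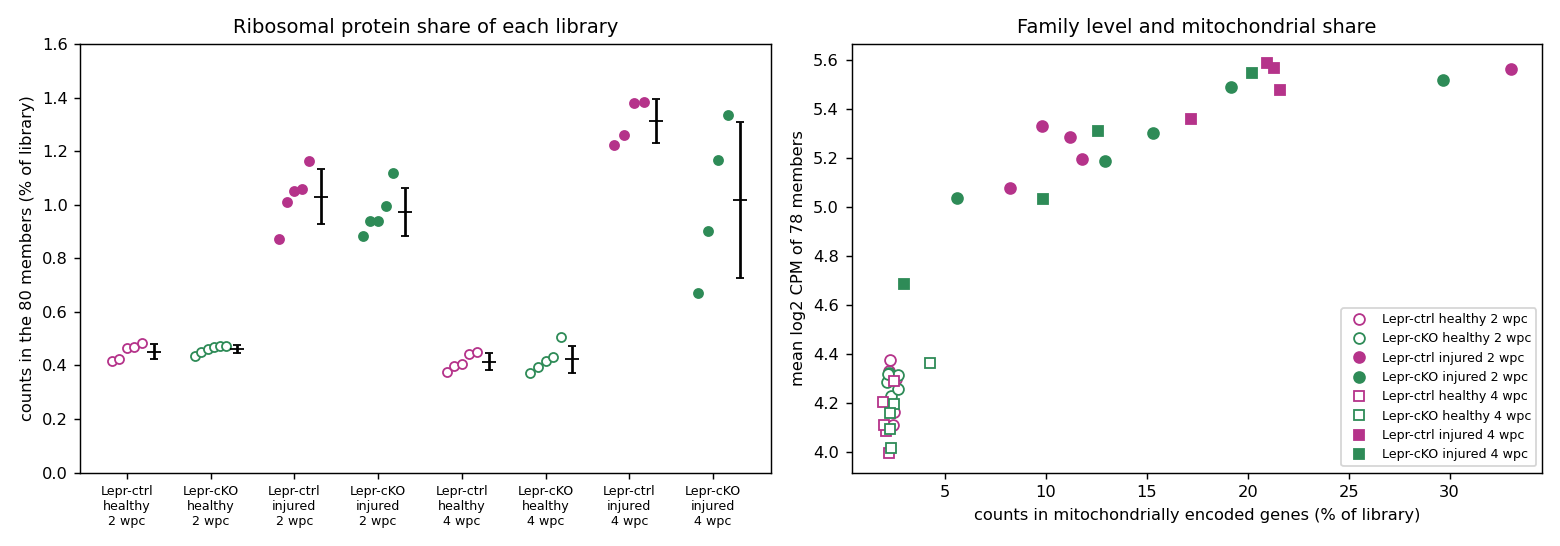
Left, percent of all counts on ribosomal protein genes in each library (points) sorted by value within each of the 8 groups, with the group mean and SD (black ticks and whiskers). Right, mean log2 CPM of the genes against the percent of counts on mitochondrially encoded genes. Healthy groups have mean shares of 0.414% to 0.461% and injured groups of 0.974% to 1.31%.

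Other parts of the transcriptome moved with injury. Mitochondrially encoded genes took 2.13% to 2.72% of counts in the healthy groups and 11.4% to 20.2% in the injured groups. Macrophage markers (16 genes, most abundant Lyz2, none at 0) summed to 304 to 454 CPM in the healthy groups and to 4051, 3115, 6561 and 3683 CPM in injured *Lepr*-ctrl and *Lepr*-cKO nerves at 2 wpc and then at 4 wpc. Proliferation markers (12 genes, most abundant Top2a) were at 14.0 to 19.0 CPM in the healthy groups, at 177.98 and 166.4 CPM in injured *Lepr*-ctrl and *Lepr*-cKO nerves at 2 wpc, and at 33.1 and 55.3 CPM at 4 wpc. Myelin markers were at 107707 to 111330 CPM in the healthy groups and at 33159, 34002, 31979 and 59052 CPM in the same injured groups. In bulk tissue, more cells of a type and more RNA of these genes per cell cannot be told apart, and the part of these cell types in the results that follow was not tested.

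Injury against healthy was compared first in each genotype and at each time. A gene was called where edgeR's quasi-likelihood test gave a Benjamini-Hochberg adjusted p under 0.05 over the 18442 genes tested. In *Lepr*-ctrl nerves at 2 wpc, 73 of the 78 genes rose and none fell, against 33.7% of all genes tested that rose. In *Lepr*-cKO nerves at 2 wpc 76 rose, against 35.9% of all genes. At 4 wpc 71 rose in *Lepr*-ctrl, against 32.4%, and 71 in *Lepr*-cKO, against 29.6%, and none fell in either. With the added condition of a log2 fold change above 1, the rule of the study, the counts were 49, 43, 57 and 42, in the same order, against 19.8%, 20.9%, 20.1% and 16.8% of all genes. The median log2 fold change of the ribosomal protein genes was 1.11 and 1.05 at 2 wpc and 1.49 and 1.04 at 4 wpc in *Lepr*-ctrl and *Lepr*-cKO, where the median of all genes was 0.08, 0.10, 0.02 and 0.06.

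The groups did not overlap for most of these genes. All injured libraries lay above all healthy ones at 2 wpc for 66 genes (*Lepr*-ctrl) and 64 (*Lepr*-cKO), against 23.8% and 20.5% of all genes, and for 68 and 60 at 4 wpc, against 27.4% and 21.0%. Both subunits rose. Of the 60S genes 42, 45, 43 and 42 were called, and of the 40S genes 31, 31, 28 and 29, with medians of 1.05, 0.93, 1.42 and 0.99 for 60S and of 1.25, 1.16, 1.56 and 1.11 for 40S in the order *Lepr*-ctrl and *Lepr*-cKO at 2 wpc, then at 4 wpc. Of the 8 genes with under 20% of windows shared, Rpl39l passed the filter through injured libraries only. The other 7, Rps20 and Rps24 included, rose in each comparison, with medians of 1.27, 1.21, 1.82 and 1.31. Among the 50 with over 50% shared, 46, 48, 44 and 44 rose, with medians of 1.11, 1.05, 1.24 and 0.94. All 4 comparisons called 66 of the genes higher, against 21.6% of all genes, and Rpl23a, at a mean under 1 CPM in the groups compared, was called in none of them. The comparisons use different nerves, but the nerves of both genotypes were scaled and fitted together. Without the injured library of mouse m144, 94.9% of the genes rose in *Lepr*-ctrl at 2 wpc, with a median of 1.03. Without the injured library of mouse m126, 97.4% rose in *Lepr*-cKO at 2 wpc, with a median of 1.14. Without the injured library of mouse m177 and without that of mouse m169, 84.6% and 93.6% rose in *Lepr*-cKO at 4 wpc, with medians of 0.853 and 1.19.

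**Figure D3:**
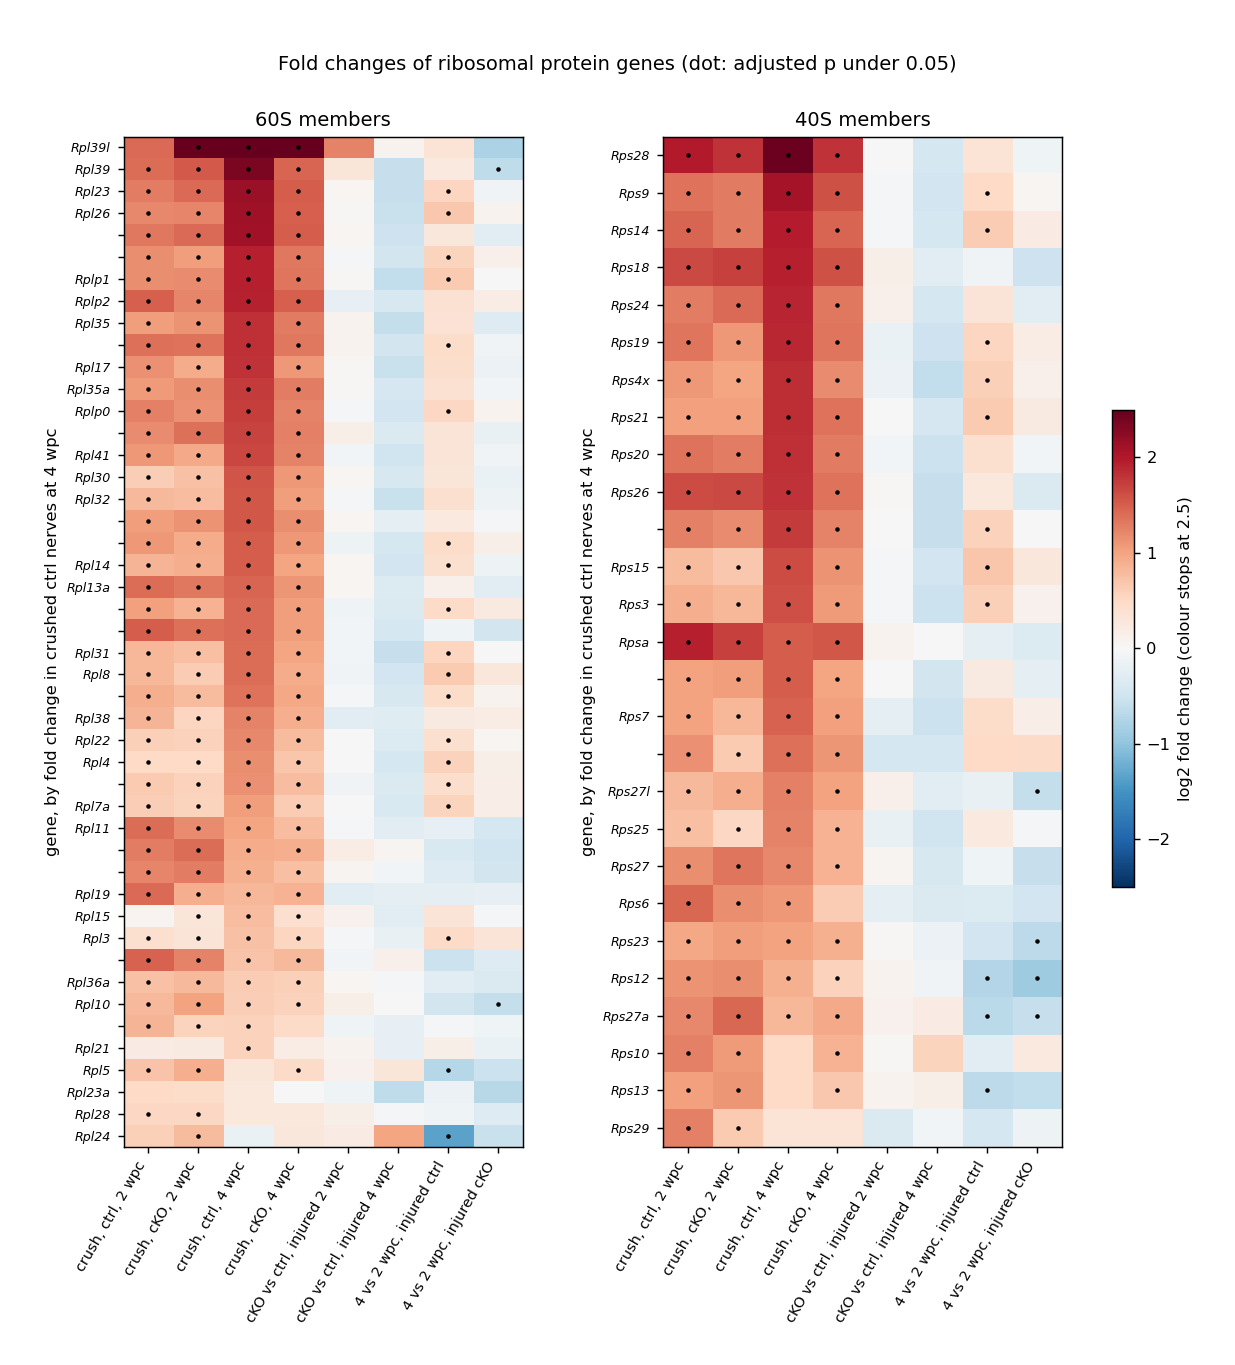
Log2 fold changes of all but 5 of the 78 tested genes (rows, 60S and 40S apart, genes named in the text labelled) in 8 comparisons (columns), on a colour scale that stops at 2.5 in either direction. A dot marks an adjusted p under 0.05 by edgeR, and dots fill most of the 4 injury columns (of all 78 genes, 73, 76, 71 and 71).

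Rps28 (17:33819027-33824562, minus strand, GRCm38), a small protein near the mRNA exit of the 40S subunit, showed the steepest rise among the genes above 1 CPM in all 4 comparisons. In *Lepr*-ctrl at 2 wpc the healthy libraries were at 6.64, 6.75, 6.27, 5.13 and 8.41 CPM and the injured ones at 20.1, 24.4, 35.6, 29.7 and 21.6 CPM. The lowest injured library was above the highest healthy one. The log2 fold change was 1.99 ± 0.18 (SE, adjusted p = 8.19e-12). In *Lepr*-cKO at 2 wpc the 6 healthy libraries ran from 7.19 over a median of 7.60 to 7.81 CPM and the injured ones were at 26.3, 19.5, 33.6, 22.9 and 29.6 CPM, a log2 fold change of 1.81 ± 0.16 (adjusted p = 1.43e-11). At 4 wpc injured *Lepr*-ctrl nerves were at 38.6, 33.1, 30.1 and 30.6 CPM over 5.21 to 7.41 CPM in the healthy ones (log2 fold change 2.46 ± 0.19, adjusted p = 3.88e-13). Injured *Lepr*-cKO nerves were at 14.2, 31.1, 23.4 and 29.6 CPM over 6.16 to 9.15 CPM (1.81 ± 0.18, adjusted p = 4.39e-10). In neither genotype did injured and healthy nerves overlap, and mouse m169 was the lowest injured library. Of the windows of Rps28, 75.7% were shared with other genes.

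Rps3 (7:99477896-99483738, minus strand), which lies at the mRNA entry of the 40S subunit and was chosen for its few shared windows after its values were seen, is at a level where counting error is small. Healthy *Lepr*-ctrl libraries at 4 wpc were at 345, 327, 297, 303 and 343 CPM and injured ones at 1039, 1090, 836 and 972 CPM, a log2 fold change of 1.61 ± 0.16 (adjusted p = 9.74e-11). Healthy *Lepr*-cKO libraries at 4 wpc were at 343, 299.6, 299, 346 and 336 CPM and injured ones at 489.8, 673, 569.9 and 990.1 CPM (1.07 ± 0.16, adjusted p = 6.03e-07). Each injured library lay above each healthy one in both genotypes, with mouse m169 closest to the healthy nerves. At 2 wpc the log2 fold change was 0.91 ± 0.15 in *Lepr*-ctrl (adjusted p = 2.2e-06) and 0.83 ± 0.14 in *Lepr*-cKO (adjusted p = 3.82e-06), again without overlap.

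Among the other genes with the largest folds, Rps18 and Rps26 of the 40S subunit stood next to Rps28 and Rpsa at 2 wpc, with log2 fold changes of 1.66 and 1.63 in *Lepr*-ctrl and of 1.71 and 1.65 in *Lepr*-cKO. At 4 wpc in *Lepr*-ctrl, Rpl39, a tiny protein at the wall of the peptide exit tunnel, rose by 2.36 ± 0.21 on the log2 scale (adjusted p = 2.23e-11) and Rpl23 by 2.17 ± 0.18 (adjusted p = 3.09e-12). In *Lepr*-cKO at 4 wpc, Rps18 and Rps9 rose by 1.59 and 1.58. Of the 7 genes around the tunnel exit (Rpl17, Rpl19, Rpl23a, Rpl26, Rpl31, Rpl35 and Rpl39) 6 rose in each comparison, all but Rpl23a. Of 8 genes of the decoding region, head and beak of the 40S subunit (Rps3, Rps10, Rps12, Rps15, Rps18, Rps19, Rps20 and Rps29) 8, 8, 6 and 7 rose. Of all 78 genes 73, 76, 71 and 71 rose, and of all genes tested 33.7%, 35.9%, 32.4% and 29.6%. Nothing particular to these groups is read from their counts, and no difference between them and the 78 genes as a whole was tested.

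The 3 genes of the P stalk, the arm of the 60S subunit that activates elongation factors, rose in all 4 comparisons, with medians of 1.26, 1.17, 1.93 and 1.33. So did 66 of the 78 genes and 21.6% of all genes tested. In Rplp0 (5:115559467-115563727, plus strand), the base of the stalk, the log2 fold change was 1.26 ± 0.13 in *Lepr*-ctrl at 2 wpc (adjusted p = 1.94e-10) and 1.73 ± 0.13 at 4 wpc (adjusted p = 6.40e-13), where healthy nerves were at 235 to 287 CPM and the injured ones at 904, 963, 766 and 871 CPM. No injured library of that group overlapped the healthy ones. Rplp1 and Rplp2, which bind Rplp0 as dimers, rose by 1.16 and 1.496 in *Lepr*-ctrl at 2 wpc and by 1.94 and 1.93 at 4 wpc. Rpsa (9:120127689-120132369, plus strand), known both as a 40S protein and as a laminin-binding protein, was at 2.55, 3.16, 1.82, 2.74 and 2.27 CPM in healthy and at 9.18, 5.67, 12.3, 11.2 and 9.79 CPM in injured *Lepr*-ctrl nerves at 2 wpc. These ranges did not overlap, and the log2 fold change was 1.94 ± 0.21 (adjusted p = 1.29e-09). It was 1.72 ± 0.20 in *Lepr*-cKO at 2 wpc (adjusted p = 3.56e-09) and 1.52 ± 0.22 and 1.55 ± 0.22 at 4 wpc in *Lepr*-ctrl and *Lepr*-cKO.

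**Figure D4:**
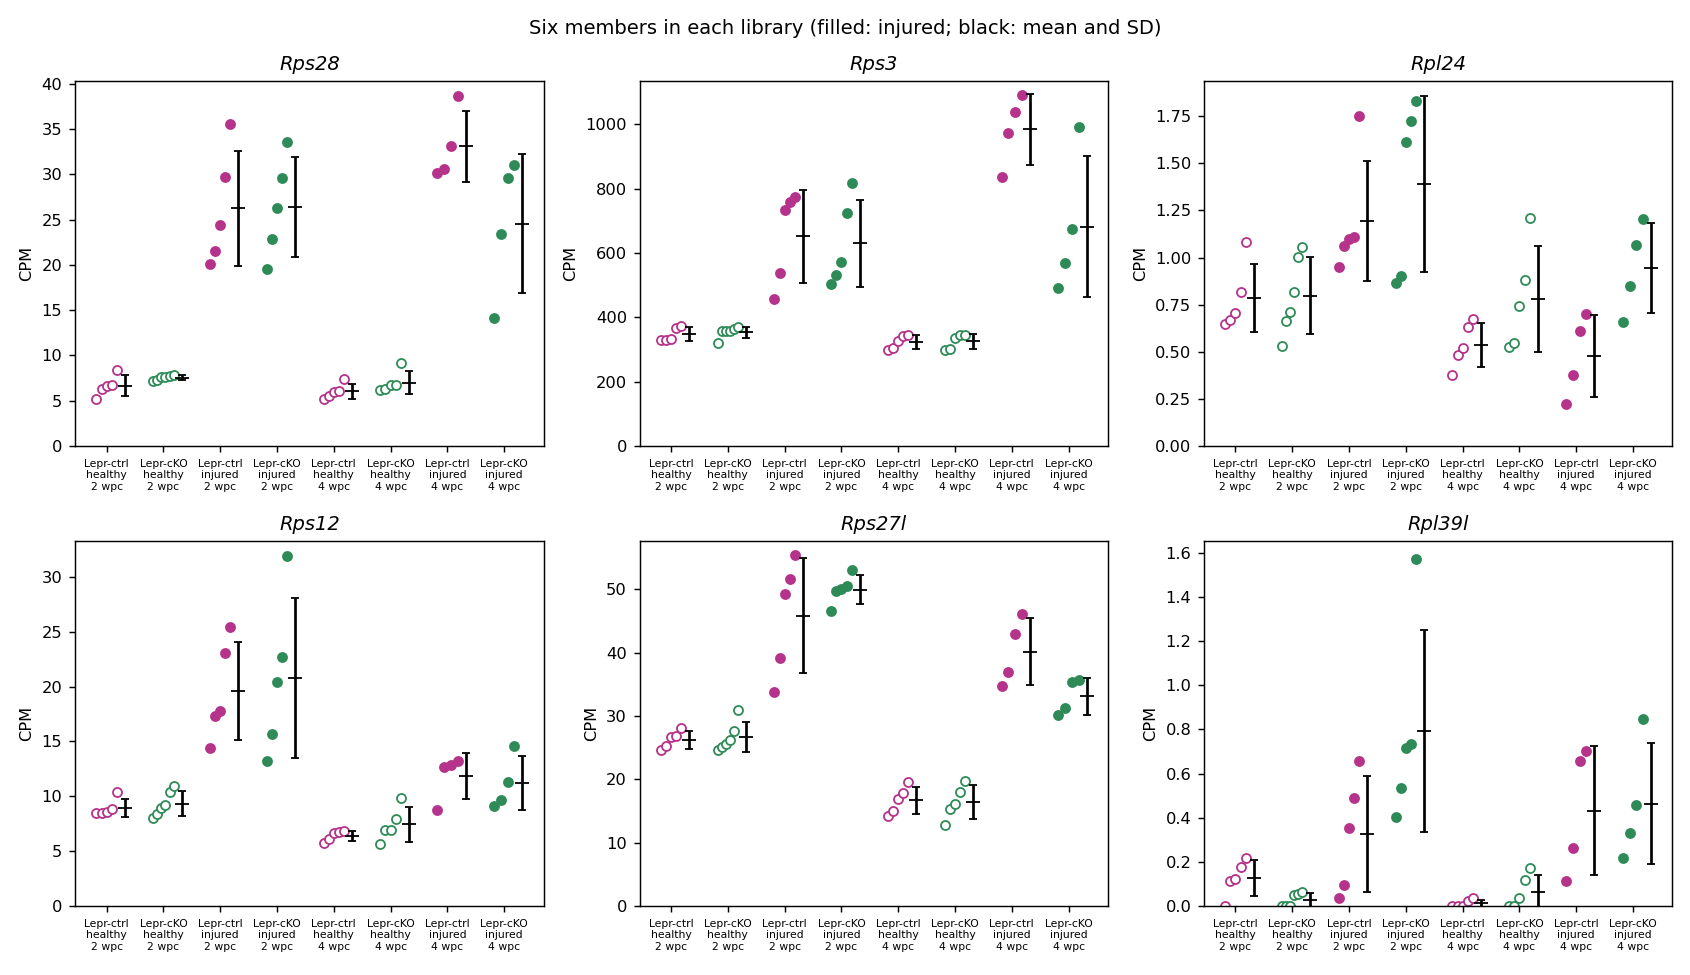
Level (CPM) of Rps28, Rps3, Rpl24, Rps12, Rps27l and Rpl39l in each of the 39 libraries by group. Rps28 and Rps3 lie higher in every injured library than in the healthy libraries of the same genotype and time, whereas Rpl24 in *Lepr*-ctrl overlaps between healthy (0.375 to 0.671) and injured nerves (0.223 to 0.701) at 4 wpc.

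Rpl5 and Rpl11 form the 5S particle with the 5S rRNA and, when free of the ribosome, bind the p53 regulator Mdm2. Rpl11 rose in all 4 comparisons, by 1.41 ± 0.19 in *Lepr*-ctrl at 2 wpc (adjusted p = 7.88e-08), 1.19 in *Lepr*-cKO at 2 wpc, and 0.99 and 0.77 at 4 wpc. Rpl5 rose by 0.72 ± 0.19 (adjusted p = 0.00125) and 0.91 at 2 wpc and by 0.48 in *Lepr*-cKO at 4 wpc (adjusted p = 0.0433), whereas its value in *Lepr*-ctrl at 4 wpc was 0.31 (adjusted p = 0.190). Rps6, the substrate of the S6 kinases below mTORC1, stood at 0.738 to 1.36 CPM in healthy and 1.93 to 4.27 CPM in injured *Lepr*-ctrl nerves at 2 wpc, without overlap. Its log2 fold change was 1.45 ± 0.26 there (adjusted p = 1.34e-05), 1.17 in *Lepr*-cKO at 2 wpc, 1.09 in *Lepr*-ctrl at 4 wpc and 0.63 in *Lepr*-cKO at 4 wpc (adjusted p = 0.0556). Rps27a, made as a fusion with ubiquitin, rose by 1.21, 1.43, 0.83 and 0.95.

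Loss of 1 allele of several of these genes causes Diamond-Blackfan anaemia in people, and 9 of them were listed (among them Rps7, Rps10, Rps19, Rps24, Rps26, Rpl5, Rpl11 and Rpl35a). All 9 rose at 2 wpc in both genotypes, 7 in *Lepr*-ctrl and 9 in *Lepr*-cKO at 4 wpc, with medians of 1.27, 1.16, 1.47 and 1.03, where 73, 76, 71 and 71 of all 78 genes rose, so nothing particular to the 9 is read from their count. Rps19, Rps24, Rps26 and Rpl35a rose in *Lepr*-ctrl by 1.33, 1.27, 1.63 and 1.06 at 2 wpc and by 1.88, 1.90, 1.81 and 1.75 at 4 wpc. Rps14, whose loss marks the 5q deletion syndrome, rose by 1.45 and 1.96. Rpl13a, which is known to leave the ribosome in interferon-treated myeloid cells, rose by 1.39 ± 0.13 at 2 wpc (adjusted p = 2.21e-11) and 1.46 at 4 wpc in *Lepr*-ctrl. Rpl38, which favours the translation of Hox transcripts in the embryo, rose by 0.86 and 1.23, Rpl10, the last protein to join the 60S subunit, by 0.81 and 0.61, and Rpl22, an RNA-binding protein that the ribosome can do without, by 0.59 and 1.20.

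The genes at the low end were a mixed group. Rpl15, which has the longest pyrimidine run printed above, was at 36.5, 38.4, 36.7, 40.6 and 27.8 CPM in healthy and 27.5, 47.6, 39.8, 29.7 and 44.8 CPM in injured *Lepr*-ctrl nerves at 2 wpc. The groups overlapped throughout, with a log2 fold change of 0.07 ± 0.13 (adjusted p = 0.634), although Rpl15 rose by 0.31 in *Lepr*-cKO at 2 wpc (adjusted p = 0.0273) and by 0.77 and 0.42 at 4 wpc. Rpl21 had values of 0.20 and 0.22 at 2 wpc and 0.19 in *Lepr*-cKO at 4 wpc, none of them past the threshold, and rose by 0.57 in *Lepr*-ctrl at 4 wpc (adjusted p = 0.00715). Rpl28 and Rps29 rose at 2 wpc (0.52 and 1.25 in *Lepr*-ctrl) and had values of 0.26 (adjusted p = 0.293) and 0.34 (adjusted p = 0.296) in *Lepr*-ctrl at 4 wpc. Rpl24 rose in *Lepr*-cKO at 2 wpc alone (0.80, adjusted p = 0.00798), with 0.60 in *Lepr*-ctrl (adjusted p = 0.0563) and -0.17 in *Lepr*-ctrl at 4 wpc (adjusted p = 0.679). At most 1.83 CPM of it was counted in any of the injured *Lepr*-cKO libraries at 2 wpc, and 81.7% of its windows were shared.

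The ranges of fold of genes with and without these promoter letters overlapped in each injury comparison. The 13 tested genes whose annotated start has a pyrimidine run had median log2 fold changes of 1.05, 1.05, 1.505 and 0.98 in the 4 injury comparisons, and the 45 others with a RefSeq window had 1.15, 1.08, 1.46 and 1.07. The 25 genes with a CCGGAAG match had 1.17, 1.05, 1.52 and 1.17, and the 33 without one had 1.08, 1.08, 1.42 and 0.99. These are descriptions with no test.

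Some members have a copy that is restricted to few tissues or a close second gene. Of these, Rpl39l, Rpl3l and Rpl10l were hardly detected in healthy nerves. Rpl39l (16:10170226-10174911, plus strand) had 20 counts in all in healthy and 47 in injured *Lepr*-ctrl nerves at 2 wpc, 6 and 120 in *Lepr*-cKO at 2 wpc, 2 and 23 in *Lepr*-ctrl at 4 wpc and 8 and 35 in *Lepr*-cKO at 4 wpc. The 2 counts of the healthy *Lepr*-ctrl group at 4 wpc lie under the floor of 3 counts. Injured over healthy, the ratio of its counts per library total was 2.86 (95% exact interval 1.66 to 5.09) and 28.0 (12.5 to 77.8) in *Lepr*-ctrl and *Lepr*-cKO at 2 wpc and 30.05 (7.43 to 263) and 7.67 (3.49 to 19.1) at 4 wpc, intervals that cover counting error alone. Rpl39l reached 10 counts, the minimum of the filter, in injured libraries only, so it entered the tests through the groups where it is high. Neither these ratios nor its edgeR calls, which the counts over the 78 genes include, support anything here. Rpl39, its broadly expressed partner, rose by 1.39, 1.54, 2.36 and 1.45. Rpl3l (17:24727820-24736143, plus strand), the striated muscle copy of Rpl3, was at 1 to 24 counts in 7 groups and at 5515 in injured *Lepr*-cKO nerves at 2 wpc, of which 5507 (155.5 CPM) came from mouse m126, the library with the muscle markers. Rpl3 rose by 0.40, 0.33, 0.72 and 0.53. Rpl10l had 3 counts in all, and Rps4l is annotated as a pseudogene and so is not among the 80. Rps27l, a copy of Rps27 that p53 induces, rose by 0.81 ± 0.11, 0.90, 1.27 and 1.01, Rps27 by 1.15, 1.34, 1.19 and 0.88, Rps4x by 1.08, 0.99, 1.85 and 1.18, and Rpl36a by 0.74, 0.81, 0.63 and 0.59.

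The symbol rule leaves out 7 genes of or near the same complex, of which 6 rose in each of the 4 comparisons, where 33.7%, 35.9%, 32.4% and 29.6% of all genes rose. The 6 were Rps3a1, Fau, Rpl36al, Rpl22l1, Rpl7l1 and Rack1, the last a scaffold on the 40S head. Rps3a1 rose by 1.45 at 2 wpc (adjusted p = 6.73e-12) and 2.23 at 4 wpc (adjusted p = 3.46e-15) in *Lepr*-ctrl and Rack1 by 1.56 and 2.02. Annotated ribosomal protein pseudogenes, 30 of 300 of which passed the filter, were called higher for 21, 22, 24 and 20, against the same shares of all genes. They were called lower for 0, 1, 2 and 0, against 30.2%, 29.2%, 31.2% and 25.8% of all genes, and had medians of 1.10, 1.27, 1.86 and 1.43. Their summed level was 22.7 to 26.9 CPM in the healthy and 49.0 to 64.6 CPM in the injured groups. Whether these reads came from the pseudogenes or from their parent genes was not tested.

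Other genes of translation were counted from lists, against the 33.7%, 35.9%, 32.4% and 29.6% of all genes that rose and the 30.2%, 29.2%, 31.2% and 25.8% that fell in the 4 comparisons. Other transcripts known to carry TOP sequences (21 genes) were higher for 16, 16, 18 and 18 and lower for 1, 1, 0 and 0, with medians of 0.68, 0.73, 1.20 and 0.78. Elongation and termination factors (12) were higher for 5, 6, 8 and 6 and lower for 3, 3, 2 and 2, with medians of 0.26, 0.23, 0.39 and 0.18. Those that rose were led by subunits of eEF1, Eef1b2 with 1.72 at 2 wpc (adjusted p = 7.6e-13) and 2.20 at 4 wpc, Eef1a1 with 0.91 and 1.67 and Eef1g with 1.06 and 1.47 in *Lepr*-ctrl. Initiation factors (38) were higher for 11, 14, 15 and 15 and lower for 10, 8, 8 and 5, with medians of 0.01, 0.10, 0.18 and 0.10. Pabpc1, the poly(A)-binding protein, rose by 0.90 and 1.69. Aminoacyl-tRNA synthetases (18) were higher for 4 and lower for 5 in *Lepr*-ctrl at 2 wpc and higher for 4 and lower for 7 at 4 wpc, with medians of -0.05 and -0.04.

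The machinery that makes ribosomes was mixed, and its counts have the same shares of all genes as background. Ribosome biogenesis genes (42) were higher for 19, 27, 19 and 17 and lower for 6, 6, 8 and 4, with medians of 0.24, 0.37, 0.20 and 0.18. Npm1, the nucleolar chaperone, rose by 1.32 and 1.86 in *Lepr*-ctrl, whereas Sbds and Mdn1, which act on the late 60S particle, fell by 1.03 and 1.14 at 2 wpc. RNA polymerase I and III genes (26) were higher for 12, 11, 10 and 8 and lower for 5, 6, 5 and 5. Polr1c, a subunit of both, rose by 1.14 at 2 wpc. Host genes of small nucleolar RNAs (15) were higher for 12, 11, 11 and 11 and lower for 2, 2, 1 and 1, with a median of 0.98 in *Lepr*-ctrl at 2 wpc. Genes of mTOR and Myc signalling (22) were higher for 6, 5, 5 and 4 and lower for 10, 9, 12 and 8, a smaller share higher and a larger share lower than among all genes each time, with no test of the difference. Myc rose by 1.97 at 2 wpc (adjusted p = 3.01e-09) and 1.42 at 4 wpc in *Lepr*-ctrl, and Eif4ebp1, the cap-binding inhibitor that mTORC1 switches off, by 1.07 and 1.23. Mtor fell by 0.83 (adjusted p = 6.2e-09) and 1.08, its partner Rptor by 0.98 and 1.30, and Larp1 by 0.55 and 0.81. Rps6kb1, the main S6 kinase, had -0.06 (adjusted p = 0.615) at 2 wpc.

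Lists from outside translation give the scale. Of all genes, 33.7%, 35.9%, 32.4% and 29.6% rose and 30.2%, 29.2%, 31.2% and 25.8% fell in the 4 comparisons. Nuclear-encoded subunits of oxidative phosphorylation (47) were higher for 28, 36, 39 and 36 and lower for 4, 2, 1 and 1, with medians of 0.40, 0.57, 0.78 and 0.55. Mitochondrial ribosomal proteins (78) were higher for 39, 44, 49 and 39 and lower for 7, 4, 3 and 2, with medians of 0.25, 0.30, 0.37 and 0.31. Proteasome subunits (31) were higher for 14, 15, 17 and 16 and lower for 9, 6, 2 and 2, with medians of 0.06, 0.20, 0.31 and 0.24. Genes of the p53 and integrated stress responses (13) were higher for 9, 8, 9 and 8 and lower for 1 each time. That gene was Cdkn1a, the cell cycle inhibitor that p53 induces, in *Lepr*-ctrl nerves (-2.05 at 2 wpc, adjusted p = 2.08e-10, and -1.56 at 4 wpc), whereas Atf4 rose there by 0.82 and 0.95. The medians of these lists were all below that of the ribosomal protein genes in the same comparison, a description for which the difference was not tested.

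**Figure D5:**
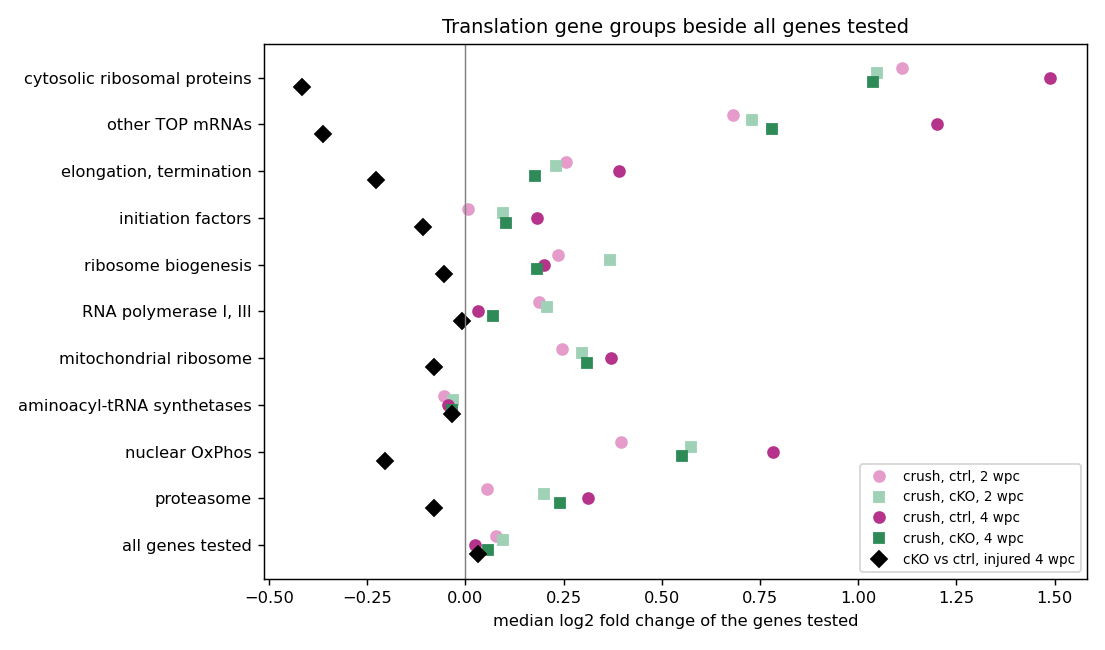
Median log2 fold change of the ribosomal protein genes and of the other gene lists in the 4 injury comparisons and in the genotype comparison of injured nerves at 4 wpc. The ribosomal protein genes lie at 1.11, 1.05, 1.49 and 1.04 after injury and at -0.42 between genotypes.

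The study asks what the loss of Lepr in Schwann cells changes in the response to injury, so the genotypes were compared next. In injured nerves at 2 wpc no ribosomal protein gene was called in either direction, where 0.580% of all genes were, each of them higher in *Lepr*-cKO. That group holds the library of mouse m126 with the muscle markers, whose part in these calls was not tested. No ribosomal protein gene had an unadjusted p under 0.05, against 6.44% of all genes. The median log2 difference, *Lepr*-cKO over *Lepr*-ctrl, was 0.01, with 40 positive and 38 negative values. In Rps3 the difference was -0.05 (95% interval from its SE, -0.34 to 0.24), in Rplp0 -0.04 (-0.28 to 0.21), in Rpl4 -0.01 (-0.25 to 0.23) and in Rps28 0.01 (-0.32 to 0.33). These intervals, here and below, use the normal distribution and are somewhat narrower than the quasi-likelihood test would give. In healthy nerves none was called at either time, against 0.0108% and 0.00542% of all genes at 2 and 4 wpc, the medians were 0.03 and 0.03, and an unadjusted p under 0.05 was reached by 1 gene at 2 wpc (Rpl39l, -1.97) and 0 at 4 wpc, against 1.20% and 1.88% of all genes.

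In injured nerves at 4 wpc none of the 78 genes was called by edgeR either, where 0.287% of all genes were called lower, and the smallest adjusted p was 0.0633. The values nevertheless leaned one way. The median was -0.42, where that of all genes was 0.03, with 68 negative and 10 positive values. An unadjusted p under 0.05 was reached by 47 genes with a lower level in *Lepr*-cKO, against 7.70% of all genes, and by 2 with a higher level (Rpl24, 0.99, and Rps10, 0.56), against 12.2%. Rpl24 had only 7, 11, 4 and 4 counts in the injured *Lepr*-ctrl libraries. Among the 7 genes other than Rpl39l with under 20% of windows shared, Rps20 and Rps24 included, the median was -0.53, with all 7 at an unadjusted p under 0.05. DESeq2 called 8 of the 78 lower, against 1.22% of all genes (among them Rps20, Rplp0, Rps3, Rpl41, Rps26, Rpl4 and Rpl14, with log2 differences of -0.59 to -0.46).

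For Rps3 the injured libraries listed above gave a difference of -0.53 (95% interval -0.85 to -0.21, adjusted p = 0.0758). Mouse m177 at 990.1 CPM lay among the controls and mouse m169 at 489.8 CPM far below them. For Rplp0 the *Lepr*-cKO libraries were at 499, 669, 508 and 850 CPM, with 1 inside the control range of 766 to 963, and the difference was -0.47 (-0.75 to -0.20, adjusted p = 0.0682). For Rpl4 (9:64173375-64178666, plus strand), a 60S core protein, they were at 708, 884, 752 and 1298 CPM against 1301, 1296, 1106 and 1257 CPM in the controls (-0.45, adjusted p = 0.0779). Rps28 differed by -0.43 (-0.80 to -0.06), with 1 of 4 *Lepr*-cKO libraries inside the control range. All 4 *Lepr*-cKO libraries lay below all 4 controls for 5 genes, Rpl14, Rpl31, Rpl35, Rplp1 and Rps24, against 2.75% of all genes. For Rplp1 (9:61913284-61914542, minus strand) the values were 264, 732, 454 and 702 CPM against 805, 961, 769 and 769 CPM, a difference of -0.62 (adjusted p = 0.0874).

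The count rested on single animals. Without the injured library of *Lepr*-cKO mouse m177, 41 of the 78 genes were called lower by edgeR, where 5.22% of all genes were. Without that of *Lepr*-cKO mouse m175 it was 2 (0.171% of all genes), without that of *Lepr*-ctrl mouse m173 it was 1 (0.495%), and without each of the other 5 it was 0. Without that of mouse m169 the median moved from -0.42 to -0.25. Markers differed between the same libraries. In the order of mice m169, m175, m176 and m177, the mean log2 CPM of the ribosomal protein genes was 4.68, 5.31, 5.03 and 5.55, the mitochondrial share 2.95%, 12.6%, 9.84% and 20.2%, and the myelin marker sum 80296, 55080, 68676 and 32158 CPM. The injured *Lepr*-ctrl libraries (mice m170, m171, m173 and m178) had 5.59, 5.57, 5.36 and 5.48, with 20.9%, 21.3%, 17.2% and 21.6% of counts on mitochondrially encoded genes and 30780, 34915, 35771 and 26448 CPM of myelin markers. Macrophage markers were at 4106, 3691, 2606 and 4330 CPM in the *Lepr*-cKO and 4147, 9071, 6269 and 6757 CPM in the *Lepr*-ctrl libraries, and fibroblast markers (11 genes, most abundant Col1a2) at 13256, 6169, 7194 and 4292 CPM in the *Lepr*-cKO and 4361, 6908, 6866 and 4887 CPM in the *Lepr*-ctrl libraries. Over the 4 *Lepr*-cKO libraries the mitochondrial share had the order of the ribosomal protein level, the myelin and fibroblast sums had the reverse order, and the macrophage sum had neither. The part of these in the genotype difference was not tested.

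The difference in the response to injury, *Lepr*-cKO minus *Lepr*-ctrl with the healthy nerves taken into account, was not called for any gene. At 2 wpc its median was -0.05. At 4 wpc the median was -0.42, the smallest adjusted p was 0.384, and 29 genes had a lower response in *Lepr*-cKO at an unadjusted p under 0.05, against 4.22% of all genes. Rps3 had -0.54 (-0.97 to -0.11). The genotype difference at 4 wpc minus that at 2 wpc in injured nerves had a median of -0.39, with no call and 23 genes lower at an unadjusted p under 0.05, against 6.33% of all genes. Without the injured library of mouse m177, 1 gene was called lower for the response to injury at 4 wpc and 5 for the genotype difference between the times, against 0.0907% and 0.965% of all genes, and without that of mouse m144, 2 for the latter, against 0.604%.

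Medians of the other lists were also taken in the genotype comparison at 4 wpc. The median was -0.46 for the 7 genes the rule leaves out, -0.36 for other TOP transcripts, -0.41 for the pseudogenes, -0.23 for elongation factors, -0.21 for oxidative phosphorylation, -0.11 for initiation factors, -0.08 for the proteasome and for mitochondrial ribosomal proteins, -0.05 for ribosome biogenesis, -0.01 for RNA polymerases I and III and 0.02 for mTOR and Myc signalling. Called lower were Nhp2 (-0.59, adjusted p = 0.0216) and Emg1 (-0.35, adjusted p = 0.048) of ribosome biogenesis and Psmd8 (-0.44, adjusted p = 0.0336) of the proteasome. Of all genes 0.287% were called lower. Without the injured library of *Lepr*-ctrl mouse m178 or of *Lepr*-cKO mouse m176, 1 of all genes was called lower, so these calls did not all stay.

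The times were compared last. Each time has its own mice, so time and any difference between those sets of mice cannot be told apart. In injured *Lepr*-ctrl nerves 29 genes were higher and 5 lower at 4 than at 2 wpc, against 10.3% and 11.0% of all genes, with a median of 0.33. All 5 that fell were among the 50 genes with over 50% of windows shared, of which 14 rose. Of the 7 other than Rpl39l with under 20% shared, Rps20 and Rps24 included, 4 rose and none fell, and all 7 values were positive. Fitted on the compared groups alone, 10 rose and 2 fell (Rps12 and Rps27a), against 5.02% and 5.11% of all genes. Among those that rose in the fit of all libraries were Rps15 (0.70, adjusted p = 0.00172), Rpl26 (0.68, adjusted p = 0.00633) and Rpl8 (0.66, adjusted p = 0.00159), and Rplp0 rose by 0.52 (adjusted p = 0.00436) and Rplp1 by 0.66 (adjusted p = 0.0118). The number that rose was 11 without the injured library of *Lepr*-ctrl mouse m171 (6.52% of all genes), 16 without that of mouse m170 (7.19%) or mouse m147 (7.69%), 17 without that of mouse m123 (7.4%), 19 without that of mouse m178 (7.31%) and 35 without that of mouse m144 (11.3%). The number that fell was 2 without the injured library of mouse m171 (8.83% of all genes) and 8 without that of mouse m131 (11.8%). In injured *Lepr*-cKO nerves none rose and 6 fell (Rps12, Rps23, Rpl39, Rps27l, Rpl10 and Rps27a), against 8.01% and 6.79% of all genes, with a median of -0.10. Fitted on the compared groups alone, 1 fell (Rps27l), against 0.335% of all genes. Without the injured library of mouse m126, 13 fell (8.93% of all genes), without that of mouse m177, 12 (7.55%), and without that of mouse m169 or mouse m176, 3 (8.33% and 5.79%). Without that of mouse m169 or of mouse m135, 1 rose (6.05% and 7.37% of all genes). That the count passed in one genotype and not in the other was tested only by the genotype difference between the times given above, which called no gene.

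The 5 genes that fell in injured *Lepr*-ctrl nerves are ones whose counts are uncertain, with 90.1% of windows shared in Rps12, 93.8% in Rpl5, 83.0% in Rps13, 81.7% in Rpl24 and 71.9% in Rps27a. Rps12 (10:23785183-23787275, minus strand), a 40S protein known from cell competition in flies, was at 23.1, 17.4, 25.4, 17.8 and 14.4 CPM in injured *Lepr*-ctrl nerves at 2 wpc and at 13.2, 8.73, 12.6 and 12.9 CPM at 4 wpc, and at 20.4, 13.2, 22.7, 31.9 and 15.7 and then 9.69, 11.3, 9.13 and 14.6 CPM in *Lepr*-cKO. The times did not overlap in *Lepr*-ctrl and did in *Lepr*-cKO, and Rps12 fell in both, by 0.72 (adjusted p = 0.00703) and 0.90 (adjusted p = 0.00143). Rps27a fell in both as well, by 0.67 (adjusted p = 0.0147) and 0.57 (adjusted p = 0.0434). In *Lepr*-ctrl the others were Rpl5 (-0.71, adjusted p = 0.0121), Rps13 (-0.66, adjusted p = 0.0313) and Rpl24. Rpl24 (16:55966275-55971435, plus strand) was at 1.75, 1.06, 0.949, 1.10 and 1.11 CPM at 2 wpc and 0.609, 0.701, 0.223 and 0.375 CPM at 4 wpc, without overlap and with a log2 difference of -1.33 ± 0.34 (adjusted p = 0.00441). The levels at 4 wpc rest on only 7, 11, 4 and 4 counts.

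Rps27l (9:66946086-66949516, plus strand) fell with time in healthy nerves too. Healthy *Lepr*-ctrl nerves were at 28.1, 24.6, 25.2, 26.6 and 26.8 CPM at 2 wpc and at 19.5, 14.2, 15.03, 17.8 and 16.9 CPM at 4 wpc, without overlap (-0.65, adjusted p = 0.00226). Healthy *Lepr*-cKO nerves ran from 24.6 over a median of 25.9 to 30.9 CPM at 2 wpc and were at 16.1, 18.1, 12.8, 19.7 and 15.4 CPM at 4 wpc, again without overlap (-0.70, adjusted p = 0.000665). In the fit of all libraries it was the one gene called in healthy *Lepr*-cKO nerves, where 0.195% of all genes were lower, and 1 of 2 in healthy *Lepr*-ctrl nerves, with Rpl30 (-0.67, adjusted p = 0.0477), where 1.07% were. Fitted on the compared groups alone, 9 of 77 genes were called lower in *Lepr*-cKO, against 3.38% of all genes, and 20 of 77 in *Lepr*-ctrl, against 9.07%, with Rps27l and Rpl30 among them in both. In injured *Lepr*-cKO nerves it fell by 0.59 (adjusted p = 0.000837), from 46.6 to 53.0 CPM at 2 wpc to 30.1, 35.4, 31.2 and 35.7 CPM at 4 wpc. In injured *Lepr*-ctrl nerves the value was -0.19, with 33.8 to 55.4 CPM at 2 wpc and 34.7 to 46.1 CPM at 4 wpc, and the groups overlapped.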

How the data were processed

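Sciatic nerve endoneuria were sequenced by the authors as single 50-base reads on an Illumina HiSeq. The submitters' processing notes name bcl2fastq 2.20.0.422, STAR 2.5, GRCm38 and featureCounts 1.5.0-p1. The use of strand and the counting of reads that fit several places are not given in the sources used here. The deposited values are raw counts per gene, neither normalized nor filtered by the authors.

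From these counts, edgeR 4.0.16 (R 4.3.3, limma 3.58.1) was fitted to 39 libraries in 8 groups over 18442 genes, with TMM scaling, an expression filter (minimum count 10, minimum total 15), the quasi-likelihood test and Benjamini-Hochberg adjustment. CPM used TMM-scaled totals, and log2 CPM a prior count of 2. Replicates are separate mice. Gene names came from GENCODE M21, and 55480 of 55573 identifiers were named. Windows of a single coding transcript per gene were searched as exact matches in 141767 annotated transcripts, not in the genome. The fit was tested on simulated data. At the smallest total, 10905806, 1 CPM is about 11 counts.

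The members and gene lists were chosen with earlier results of these data known. Genes were named by role, by being restricted copies, by size (up to 4 called members a direction and comparison with mean log2 CPM above 1, up to 3 called genes from each other list), and where their exceptions are described, after their values were seen. Lists not printed by gene are given by count. The nerves of a mouse carry its number for 17 mice, and the deviations of these pairs correlated at -0.116 to 0.567 over 5000 genes, above 0.1 in 14 pairs. Alternatives were DESeq2 1.42.0, its size factors, other filters and call rules, mitochondrially encoded genes left out, the groups compared alone, sex as a term, the mouse as a block, genes under 20% shared, and each library left out. A few genes are not reported here by name.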

Additional observations from a re-analysis of the deposited data

Results flagged for a closer look

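Of 160 groups of 4 to 6 libraries checked, over the ribosomal protein genes described by library, 12 held a library whose gap to the others passed Dixon's 95% limit, where chance gives about 1 in 20. In healthy *Lepr*-cKO nerves at 4 wpc, mouse m177 was high in Rps28 (9.149 CPM, others 6.161 to 6.735) and low in Rpsa (2.158, others 2.825 to 3.075). In healthy *Lepr*-ctrl nerves at 4 wpc, mouse m178 was high in Rpsa (4.041, others 2.249 to 2.741). Rpl24 was high in injured *Lepr*-ctrl mouse m123 at 2 wpc (1.752, others 0.9487 to 1.11), and Rpl39l in injured *Lepr*-cKO mouse m138 at 2 wpc (1.573, others 0.403 to 0.734). Rps12 was high in healthy *Lepr*-ctrl mouse m147 at 2 wpc (10.36, others 8.457 to 8.859) and low in injured *Lepr*-ctrl mouse m171 at 4 wpc (8.727, others 12.64 to 13.23). The other 5 were Rpl3l: 155.5 CPM in injured *Lepr*-cKO mouse m126 at 2 wpc (others at most 0.2247), 0.1726 in healthy *Lepr*-cKO mouse m177 at 4 wpc, and 0.08894, 0.2846 and 0.08702 in *Lepr*-ctrl mice m147 (healthy, 2 wpc), m144 (injured, 2 wpc) and m170 (injured, 4 wpc). The last 4 rest on 4, 2, 6 and 1 counts, of which 2 and 1 lie under the floor of 3 counts.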

How the results depend on the processing

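None of the called results tallied below changed direction under the alternatives run. Medians near 0 took either sign as single libraries were left out, from -0.28 to 0.04 for time in injured *Lepr*-cKO, -0.08 to 0.08 for the genotype in injured nerves at 2 wpc, -0.03 to 0.05 for that in healthy nerves at 4 wpc and -0.13 to 0.02 for the interaction at 2 wpc. For called results of genes named in the text, 2278 of 2356 alternative values kept their direction and still passed the threshold. The other 78 kept the direction but no longer passed. Results that edgeR did not call are outside this tally, and some of them passed under an alternative. Among these were Rps3, Rplp0, Rpl4 and Rpl14 between genotypes in injured nerves at 4 wpc with DESeq2. With the mouse as a replicate block, 71, 74, 71 and 70 of the 78 genes rose after injury (91.0%, 94.9%, 91.0% and 89.7%) and the responses of the genotypes differed for 0, so the pairing changed no count by over 1.5 times. The cause of the changes below was not tested.

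A log2 fold change above 1 as an added condition left 55.1% and 53.8% of the genes called in *Lepr*-cKO nerves after injury at 2 and 4 wpc, 1.28% with time in injured *Lepr*-ctrl and 0 in the other 3 time comparisons. The 8 genes under 20% shared, Rpl39l included, had medians of 1.242, 1.861 and 1.316 (*Lepr*-cKO at 2 wpc, *Lepr*-ctrl and *Lepr*-cKO at 4 wpc), with 12.5% called with time in injured *Lepr*-cKO and 0 in healthy nerves. Without a filter, 1.25% were called between genotypes in injured nerves at 2 wpc (Rpl3l, 9.158, adjusted p = 0.00112, all but 8 of its 5515 counts from mouse m126). DESeq2 called 10.3% between genotypes in injured nerves at 4 wpc, where edgeR called 0. Fitted on the compared groups alone, the time comparisons called 15.4% (43.6% in all libraries) in injured *Lepr*-ctrl, 1.28% (7.69%) in injured *Lepr*-cKO, 26% (2.56%) in healthy *Lepr*-ctrl and 11.7% (1.28%) in healthy *Lepr*-cKO nerves. Time in healthy *Lepr*-ctrl gave 1.25% without a filter, 1.28% with DESeq2 size factors or without mitochondrially encoded genes, and 4% with at least 10 counts in every library. Mean log2 CPM in healthy *Lepr*-cKO at 2 wpc was 4.238 without TMM. Medians over the genes were 4.661 and 4.572 in healthy *Lepr*-cKO, 4.628 and 4.584 in healthy *Lepr*-ctrl, and 5.54 and 5.963 in injured *Lepr*-ctrl nerves at 2 and 4 wpc. Per kilobase of unshared windows, a length added after seeing the data, the 90th percentile was 47.0 times the 10th.

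Leaving out each library gave medians of 0.8528 to 1.188 for *Lepr*-cKO after injury at 4 wpc. Calls ran from 0 to 52.6% for the genotype in injured nerves at 4 wpc, 0 to 1.28% for its interaction with injury, 0 to 6.41% for that with time, 16.7% to 50% and 3.85% to 16.7% with time in injured *Lepr*-ctrl and *Lepr*-cKO, and 1.28% to 5.13% with time in healthy *Lepr*-ctrl nerves. Depth limits Rpl39l, Rpl10l, Rpl23a and Rpl24, all near or under 1 CPM.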
